A study of Saccharomyces cerevisiae with 22 samples.

Results

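The yeast strain described here, N108A, carries alanine in place of the asparagine of histone H3 that its name gives, in the gene HHT2, and is set against hht2-wt, the control with unmutated H3. The members are the arrays whose titles name these strains: 2 arrays of N108A and 2 of hht2-wt, 4 of the 22 arrays in the series. The series profiled 11 strains with substitutions or controls in H3 or H4, with 2 independent cultures of each, a and b. The strain and the pooled wild-type reference RNA, hybridised to every array beside it, are both labelled BY4742. Per the deposited protocol text, the cultures grew to mid-log phase in synthetic medium with glucose, and those of a mutant came from separate isolates. The labels do not say where the altered HHT2 lies or whether HHT1, the other H3 gene, was kept. Titles of N108A carry the number 2 and those of hht2-wt the number 1, with no meaning given, so the number and the substitution cannot be told apart in this comparison.

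Nucleosomes wrap DNA around an octamer of histones H2A, H2B, H3 and H4, and this asparagine of H3 lies in the long central helix of its histone fold, inside the nucleosome core. Budding yeast encodes the same H3 protein in HHT1 and HHT2. Nucleosomes placed over promoters keep many inducible yeast genes low: at SER3, a gene of serine synthesis, transcription of the upstream non-coding RNA SRG1 keeps nucleosomes over the promoter, and INO1, CHA1, PHO5 and ADH2 are other textbook genes whose promoter nucleosomes are moved on induction.

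Values are log2 ratios of strain over reference RNA, normalised within each array, so a change is measured against most other genes of its array. These are bulk cultures, in which fewer cells with a transcript and less of it in each cell cannot be told apart. Changes are N108A minus hht2-wt on the log2 scale, ± the standard error of the limma fit over all 22 arrays, with n = 2 cultures in each strain. A probe was called with a Benjamini-Hochberg adjusted limma p below 0.05 over 6388 gene probes, and adjusted p-values given for genes are from this fit. Median signals in the strain channel were 309 (culture a) and 803 (culture b) for N108A and 366 (a) and 599 (b) for hht2-wt. Over the series they ran from 297 to 803, so N108A b was the brightest array and N108A a lay near the low end. Of the called probes, 2 were at background in N108A on both arrays.

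Markers were checked before the results. The a-specific gene STE2, the receptor for alpha factor, had ratios of 4.60 and 5.07 in N108A and 4.52 and 4.92 in hht2-wt, and MF(ALPHA)1, which encodes alpha factor, had -5.79 and -5.07 in N108A and -5.63 and -5.23 in hht2-wt. BY4742 is an alpha strain in the textbook, so these values go against that label for the strain or for the direction of the ratios. That direction rests on the dye labels; the series text gives the opposite order for the first hybridisation, under which every sign would turn. None of the 7 a-specific genes was called between N108A and hht2-wt, and of the 4 alpha-specific genes STE3 (0.59 ± 0.08, adjusted p = 0.000102) and SAG1 (0.42 ± 0.06, adjusted p = 0.000136) were called higher. The SAG1 call was lost in the fit without the replicate block (adjusted p = 0.142). None of the 7 strain markers (URA3, HIS3, LEU2, LYS2, MET17, TRP1 and CAN1) was called. Ratios of MET17 were -4.51 and -4.71 in N108A and -4.56 and -4.59 in hht2-wt, and those of CAN1 were -3.37 and -3.81 in N108A and -3.44 and -3.58 in hht2-wt. TRP1 had -3.14 and -3.38 in N108A and -3.09 and -3.20 in hht2-wt, and URA3 had 3.66 and 4.09 in N108A and 3.97 and 4.16 in hht2-wt. Strains and reference thus differed at these markers, although the labels name BY4742 for both. The H4 strain Y98A stood apart, with STE2 at 0.40 and 0.52 against 3.28 to 5.22 on the 20 other arrays. It enters the comparison with hht2-wt only through the spread of the fit, and a fit of the 4 arrays alone called 1640 probes. Whole chromosomes stood apart in 3 other strains: the median ratio of chromosome XIV was 0.40 and 0.38 in K44A and 0.71 and 0.71 in V81A, and in G44A that of chromosome I was 0.35 in culture a and that of chromosome VIII 0.34 in culture b. On the N108A arrays the nuclear chromosomes had medians of -0.06 to 0.11, and over all 8 strains other than those 3, N108A included, of -0.11 to 0.11. Those 3 strains too enter the comparison with hht2-wt only through the spread of the fit. In that comparison 1.2% of chromosome I probes and 4.37% of chromosome VIII probes were called lower, beside 12% of all probes. Higher calls were 13.3% and 15.9%, beside 16.6%. The part of the spread within G44A was not tested.

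In N108A, 1829 of 6388 probes (28.6%) differed from hht2-wt. Of these, 1062 (16.6%) were higher and 767 (12%) were lower. By the dye labels, 130 probes were higher by at least 1.7-fold and 3 were lower by as much, and the opposite dye order would turn these into 3 higher and 130 lower. Both N108A ratios lay above both hht2-wt ratios at 1853 probes (29%) and below both at 1673 (26.2%). The log2 changes had an SD of 0.25 over probes, against 0.058 between the controls hht2-wt and hhf2-wt, where limma called 0 probes and 70 had an unadjusted p below 0.05. Without hht2-wt culture a the count was 925 (652 higher and 273 lower), and it was 1232 without N108A a (407 lower), 1301 without N108A b (483 lower) and 1428 without hht2-wt b. The plot of culture a against culture b shows that the change measured in each culture ran alike over probes, with a correlation of 0.807 across probes, which are not independent replicates.

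**Figure D1:**
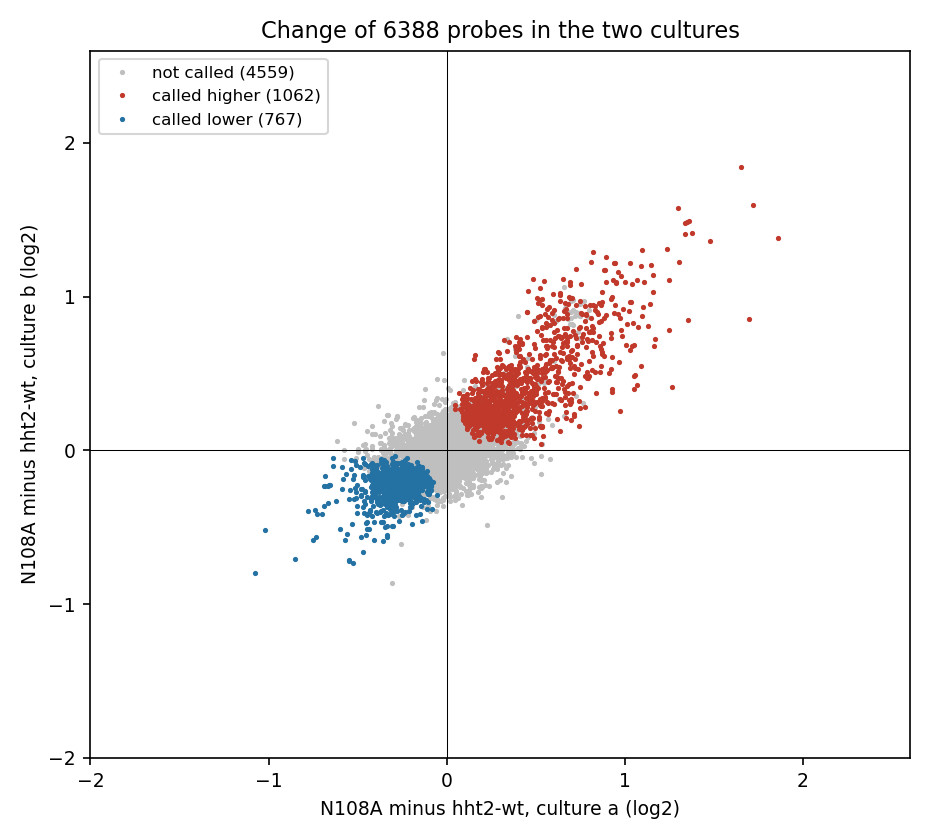
Each point is 1 of 6388 probes, with the log2 difference N108A minus hht2-wt in culture a (horizontal axis) and culture b (vertical axis). Called probes, 1062 higher and 767 lower, lie along the diagonal, and by the dye labels the changes upward reach further than those downward.

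Of the named probes, SNZ1 changed most, at 3.15-fold higher in N108A. The 12 named genes with the largest changes upward and the 12 with the largest downward, among called genes whose ratios did not overlap between the strains, are plotted by array. The upward group holds genes of vitamin B6 and thiamine (SNZ1, SNO1, THI11), general stress (RTN2, HXK1, SSA4), the pentose phosphate pathway (GND2), promoter-nucleosome control (SER3, INO1), the subtelomeric COS12, and ECM4 and YDR131C. The downward group holds 3 genes of arginine synthesis (ARG3, ARG1, ARG8), the permeases SAM3 and SIT1, the elongation factor gene SPT4, the cyclin gene CLB2, and KEI1, PUF6, YCP4, HO and YLR126C. Since these 24 were picked for this difference, their separation is a description. Of the 6388 probes, 1062 had no gene name here, and 242 of these were higher and 104 lower, with changes between -0.94 and 1.75.

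**Figure D2:**
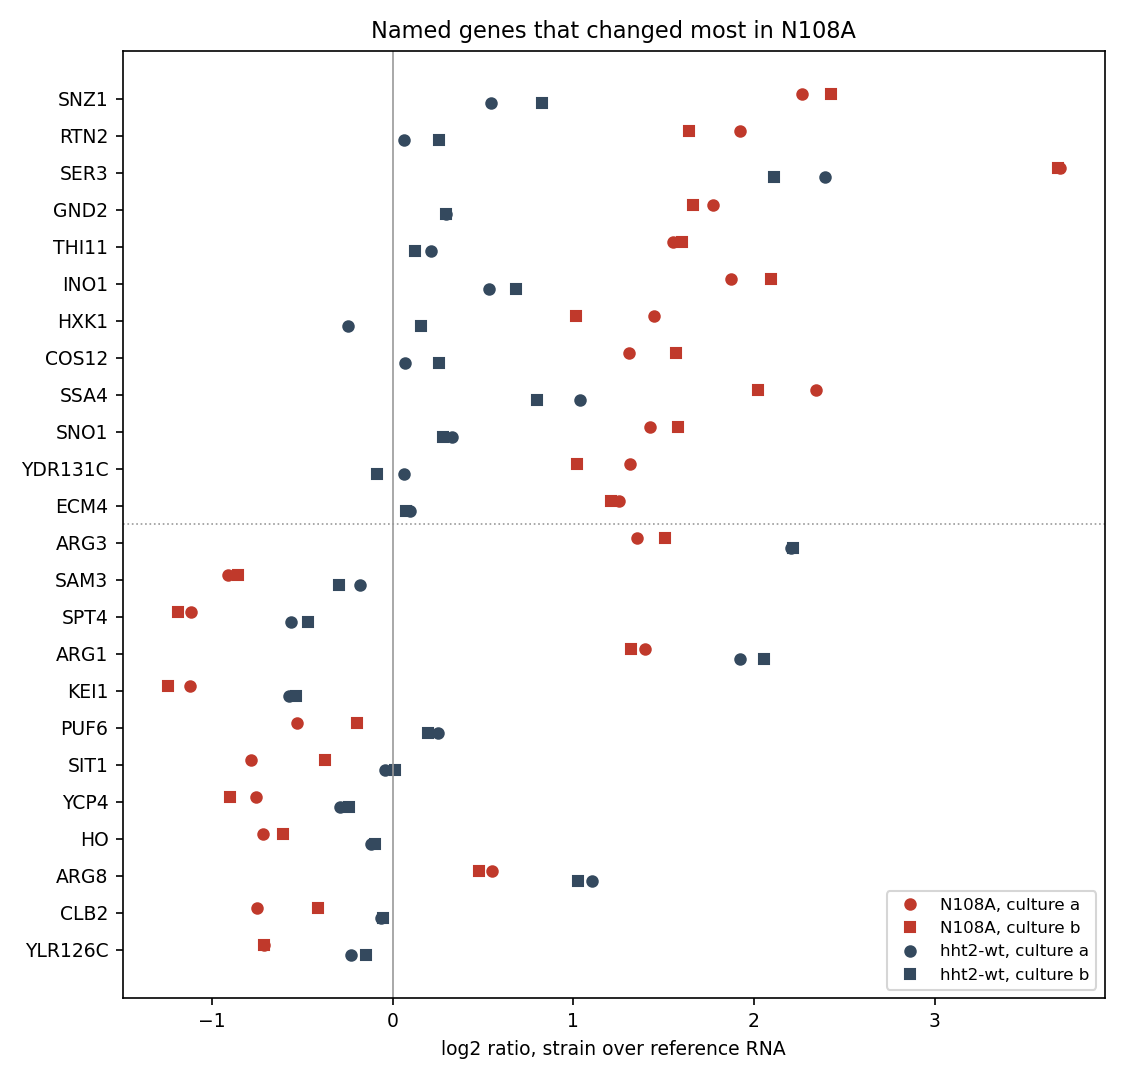
Log2 ratios of strain over reference for the 24 named genes that changed most, with 2 cultures each of N108A (red) and hht2-wt (dark), circles for culture a and squares for culture b. The red and dark points do not overlap in any row, which is how the genes were chosen, and the difference of means is largest for SNZ1, RTN2 and SER3.

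The histone genes changed little. HHT2, the gene that carries the substitution, had ratios of -1.79 and -2.44 in N108A and -2.03 and -2.21 in hht2-wt. The groups overlapped and the change was 0.00 ± 0.14 (adjusted p = 0.992). A substitution of 1 residue leaves the transcript in place, so its level does not check the genotype. HHT1, which encodes the same H3, had -0.87 and -1.23 in N108A and -1.21 and -1.18 in hht2-wt, and was not called (0.15 ± 0.12, adjusted p = 0.381). Cross-hybridisation between the near-identical HHT1 and HHT2, or HHF1 and HHF2, was not tested. HHF2, which encodes H4 and is transcribed divergently from HHT2, had -0.12 and -0.31 in N108A and -0.78 and -0.76 in hht2-wt. Both N108A values lay above both controls (0.55 ± 0.10, adjusted p = 0.00114). HHF1, the other H4 gene, was not called (0.09 ± 0.11, adjusted p = 0.545). Among the H2A and H2B genes HTB2 was called lower (-0.23 ± 0.08, adjusted p = 0.041), a call lost without N108A a (adjusted p = 0.163), N108A b (0.10) or hht2-wt b (0.32). HTA1 (-0.06), HTA2 (-0.15) and HTB1 (-0.15) were not called, nor were HTZ1 for H2A.Z (-0.18), CSE4 for the centromeric H3 variant (-0.11) and HHO1 for linker histone (-0.08). In all, 1 of 11 histone probes was higher and 1 lower, against 16.6% and 12% of all probes.

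Of 17 genes known for control by promoter nucleosomes, 6 (35.3%) were higher and 2 (11.8%) lower, against 16.6% and 12% of all probes. PHO5 was not among the 17 genes. The median change was 0.05, and 3 members were higher by more than 1 on the log2 scale. SER3, which encodes an enzyme of serine synthesis, had ratios of 3.69 and 3.68 in N108A and 2.39 and 2.11 in hht2-wt. Both N108A cultures were well above both controls, a 2.71-fold difference (1.44 ± 0.13, adjusted p = 6.06e-06). INO1, the inositol-3-phosphate synthase, had 1.87 and 2.09 in N108A and 0.53 and 0.68 in hht2-wt (1.37 ± 0.11, adjusted p = 1.28e-06). CHA1, a catabolic serine and threonine deaminase, had 0.91 and 0.75 in N108A and -0.13 and -0.33 in hht2-wt (1.06 ± 0.12, adjusted p = 2.69e-05). For INO1 and CHA1 too the cultures of the strains were clearly apart. These 3 calls held under each of the 13 alternatives run. ADH2, the alcohol dehydrogenase repressed by glucose, had 0.24 and 0.05 in N108A and -0.25 and -0.31 in hht2-wt (0.42 ± 0.08, adjusted p = 0.00117), a call lost with median centring alone (0.24, adjusted p = 0.101). RNR3 (0.38 ± 0.11, adjusted p = 0.0182), a ribonucleotide reductase gene, and PHO8 (0.18 ± 0.04, adjusted p = 0.00777), a vacuolar alkaline phosphatase, were also higher. The galactose genes GAL1 (-0.07), GAL7 (0.04) and GAL10 (0.17), the phosphate transporter gene PHO84 (-0.13) and the invertase gene SUC2 (-0.14) were not called. FLO8 (0.11) and STE11 (0.05), within which cryptic initiation is known in chromatin mutants, were not called either. ARG1 and HO, described below, were the 2 lower members.

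The genes around SER3 in its pathway did not move with it. Of 15 probes for serine, glycine and one-carbon metabolism, 2 were higher, SER3 and CHA1, and 1 was lower, beside 16.6% and 12% of all probes. SER33, the paralog that encodes the same step as SER3, had -0.07 and -0.16 in N108A and -0.10 and -0.19 in hht2-wt (0.03 ± 0.05, adjusted p = 0.701). SER1 (-0.08, adjusted p = 0.592) and SER2 (-0.20, adjusted p = 0.0534), the following steps, and CHA4 (0.19, adjusted p = 0.0511), the activator of CHA1, were not called. GCV1, a subunit of the glycine decarboxylase, was the lower member, with -0.24 and -0.35 in N108A and 0.21 and 0.07 in hht2-wt (-0.43 ± 0.07, adjusted p = 0.000601). INO1 was likewise the 1 higher of 31 probes for sterol and lipid synthesis, of which 4 were lower, a count of 0 without N108A a or hht2-wt a. For this list too the shares over all probes were 16.6% higher and 12% lower. The phospholipid methyltransferase gene OPI3 (0.03, adjusted p = 0.848) and the phosphatidylserine synthase gene CHO1 (-0.10, adjusted p = 0.473), which share inositol control with INO1, were not called.

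Across the series, SER3, CHA1 and BNA2 were higher in both N108A cultures than on all 20 other arrays. SER3 ran from 1.28 to 3.58 on those, with the H4 strain K44A at 3.37 and 3.58 just below N108A at 3.69 and 3.68. CHA1 ran from -1.64 to 0.44, with both ends in H3 strains (Q5A lowest, R53A highest). BNA2, the tryptophan dioxygenase at the head of NAD synthesis, had 2.21 and 2.42 in N108A and 0.46 to 1.65 elsewhere. INO1 was not highest in N108A: the H4 strain Y98A had 2.65 and 2.36, against 1.87 and 2.09 in N108A, and the other 18 arrays lay below both. Over all probes, both N108A ratios lay above those of all 20 other arrays at 256 probes (4.01%) and below them at 140 (2.19%); with Y98A left out, the counts were 286 (4.48%) and 153 (2.4%) against 18 arrays. Of the 12 genes highest against hht2-wt 2 lay above all others (SER3 and YDR131C), and of the 12 lowest 5 lay below all others (SAM3, SPT4, ARG1, SIT1 and YCP4). These genes were picked for their separation from hht2-wt, whose arrays are among the 20. Their counts are thus a description and cannot be set against the shares of all probes.

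**Figure D3:**
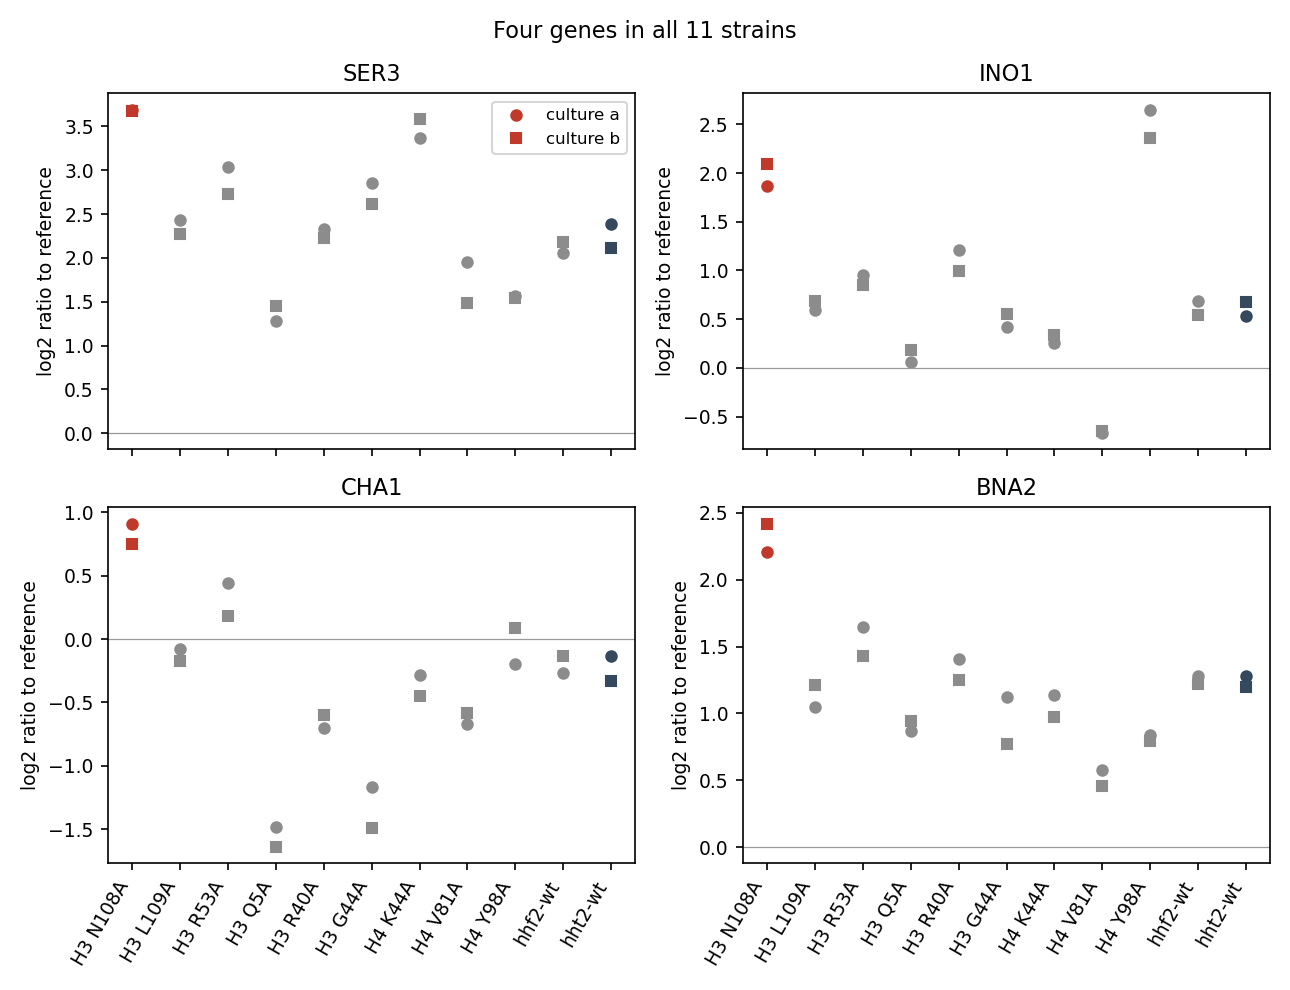
Log2 ratios of strain over reference for SER3, INO1, CHA1 and BNA2 in all 11 strains, N108A at the left in red and hht2-wt at the right in dark, circles for culture a and squares for culture b. N108A is highest for SER3, CHA1 and BNA2, and second to the H4 strain Y98A for INO1.

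BNA2 had a neighbour that moved with it. Its own ratios of 1.28 and 1.20 in hht2-wt gave a change of 1.08 ± 0.10 (adjusted p = 7.69e-06) in N108A. YJR079W, the next gene on the chromosome, had 1.36 and 1.59 in N108A and 0.70 and 0.69 in hht2-wt (0.78 ± 0.06, adjusted p = 7.65e-07), and its N108A values too were above those of all other arrays. Of 19 probes of NAD synthesis 5 were higher and 1 lower, a count of higher members that was 2 without hht2-wt a and 3 without N108A a. Over all probes 16.6% were higher and 12% lower. BNA4, which encodes kynurenine monooxygenase, a later step of the same route, was higher (0.38 ± 0.08, adjusted p = 0.00329). BNA1 (0.12, adjusted p = 0.279), BNA5 (-0.17, adjusted p = 0.0999) and BNA6 (0.03, adjusted p = 0.737), also steps of the route, were not called, nor were HST1 (0.14) and SUM1 (-0.22), which encode the deacetylase and the DNA-binding protein of a repressor of these genes.

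Genes of vitamin B6 and thiamine were higher as a group, with 14 of 22 probes higher and 1 lower. The median change was 0.28, and over all probes 16.6% were higher and 12% lower. SNZ1, a subunit of the enzyme that makes pyridoxal phosphate, had 2.27 and 2.42 in N108A and 0.55 and 0.83 in hht2-wt (1.66 ± 0.13, adjusted p = 1.91e-06). SNO1, the partner subunit, which neighbours SNZ1, had 1.43 and 1.58 in N108A and 0.33 and 0.28 in hht2-wt (1.20 ± 0.12, adjusted p = 9.16e-06). The strains did not overlap for either gene. THI11, of thiamine precursor synthesis, had 1.55 and 1.60 in N108A and 0.21 and 0.13 in hht2-wt (1.41 ± 0.06, adjusted p = 3.74e-09); it belongs to a family of near-identical genes, so its signal may include the others. The thiamine transporter gene THI7 (0.46 ± 0.09, adjusted p = 0.0029), the activator gene THI2 (0.45 ± 0.06, adjusted p = 5.35e-05) and SNZ3 (0.56 ± 0.09, adjusted p = 0.000414) were higher too. THI4, the thiazole synthase, was not called (0.23, adjusted p = 0.0689), and neither was THI6 (0.03). THI80, which converts thiamine to its pyrophosphate, was the lower member, with -0.27 and -0.42 in N108A and 0.28 and -0.10 in hht2-wt (-0.43 ± 0.07, adjusted p = 0.000559). The count of 14 became 9 without hht2-wt a and 9 with median centring alone.

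In the pentose phosphate pathway, 3 minor isozymes were higher. GND2, the minor 6-phosphogluconate dehydrogenase, had 1.77 and 1.66 in N108A and 0.29 and 0.30 in hht2-wt (1.42 ± 0.11, adjusted p = 1.42e-06). NQM1, a transaldolase paralog (0.69 ± 0.13, adjusted p = 0.00137), and TKL2, the minor transketolase (0.51 ± 0.05, adjusted p = 8.83e-06), rose as well. All their N108A ratios lay above those of hht2-wt. SOL4, the paralog of the lactonase gene SOL3, had 0.90 and 0.43 in N108A and 0.13 and 0.12 in hht2-wt, and was not called (0.54 ± 0.28, adjusted p = 0.171). GND1, the major isozyme of GND2, had -0.62 and -0.60 in N108A and -0.46 and -0.54 in hht2-wt (-0.11 ± 0.09, adjusted p = 0.383). TKL1 (-0.21, adjusted p = 0.0569) and ZWF1, the entry enzyme (0.07, adjusted p = 0.741), were not called. TAL1, the major transaldolase, was lower, with -1.27 and -1.24 in N108A and -0.92 and -0.86 in hht2-wt (-0.37 ± 0.08, adjusted p = 0.00429). Among all 6388 probes 16.6% were higher and 12% lower. Of the 11 probes, 3 were higher and 1 lower, and the count of 3 held in each fit without 1 culture.

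General stress genes gave the highest share of any list, 39 of 48 higher and none lower, beside 16.6% and 12% of all probes. Their median change was 0.50. RTN2, a reticulon-like protein of the endoplasmic reticulum, had 1.92 and 1.64 in N108A and 0.06 and 0.26 in hht2-wt (1.62 ± 0.20, adjusted p = 6.68e-05). SSA4, a stress-induced cytosolic HSP70, had 2.34 and 2.02 in N108A and 1.04 and 0.80 in hht2-wt (1.26 ± 0.14, adjusted p = 2.6e-05). HSP42, a small heat shock protein, had 1.79 and 1.25 in N108A and 0.43 and 0.40 in hht2-wt (1.10 ± 0.19, adjusted p = 0.000905). The gap between the strains exceeded the spread between cultures in each. HXK1, hexokinase isoenzyme 1, had 1.45 and 1.01 in N108A and -0.25 and 0.16 in hht2-wt (1.28 ± 0.30, adjusted p = 0.00562), a call lost without N108A a (1.08, adjusted p = 0.0587) or hht2-wt a (1.01, adjusted p = 0.0801). The cultures differed within a strain for several of these genes: HSP12, a membrane-associated stress protein, had 2.18 and 1.33 in N108A and 0.91 and 0.92 in hht2-wt (0.84 ± 0.30, adjusted p = 0.0478), and fell short of a call without N108A a (0.48, adjusted p = 0.365), hht2-wt a (adjusted p = 0.223) or hht2-wt b (adjusted p = 0.0908). The median change of the list was 0.65 in culture a and 0.39 in culture b, and the count of 39 became 19 without N108A a and 19 without hht2-wt a.

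Heat shock genes had 15 of 20 higher and none lower, beside 16.6% and 12% of all probes, with a median of 0.29. BTN2, involved in sorting misfolded protein, had 0.92 and 0.57 in N108A and -0.15 and -0.23 in hht2-wt (0.94 ± 0.10, adjusted p = 1.26e-05), and SSA1, a constitutive HSP70, had 0.60 and 0.53 in N108A and -0.04 and -0.06 in hht2-wt (0.62 ± 0.07, adjusted p = 3.88e-05). HSF1, the heat shock activator gene, was itself higher by less (0.30 ± 0.07, adjusted p = 0.00396). HSP60 (0.16, adjusted p = 0.279) and YDJ1 (0.14, adjusted p = 0.157), a mitochondrial chaperonin and an HSP40, were not called. The count became 7 without hht2-wt a, 9 without N108A a and 9 without hht2-wt b. Genes of trehalose and glycogen had 14 of 20 higher and none lower, with a median of 0.38. GDB1, the glycogen debranching enzyme, had 0.91 and 1.11 in N108A and -0.02 and 0.13 in hht2-wt (0.95 ± 0.11, adjusted p = 3.78e-05), the largest change of that list. Its count was 4 without hht2-wt a and 6 without either N108A culture. Proteasome genes lay close to the background, with 7 of 33 higher, and that count ran from 1 to 13 over the alternatives.

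**Figure D4:**
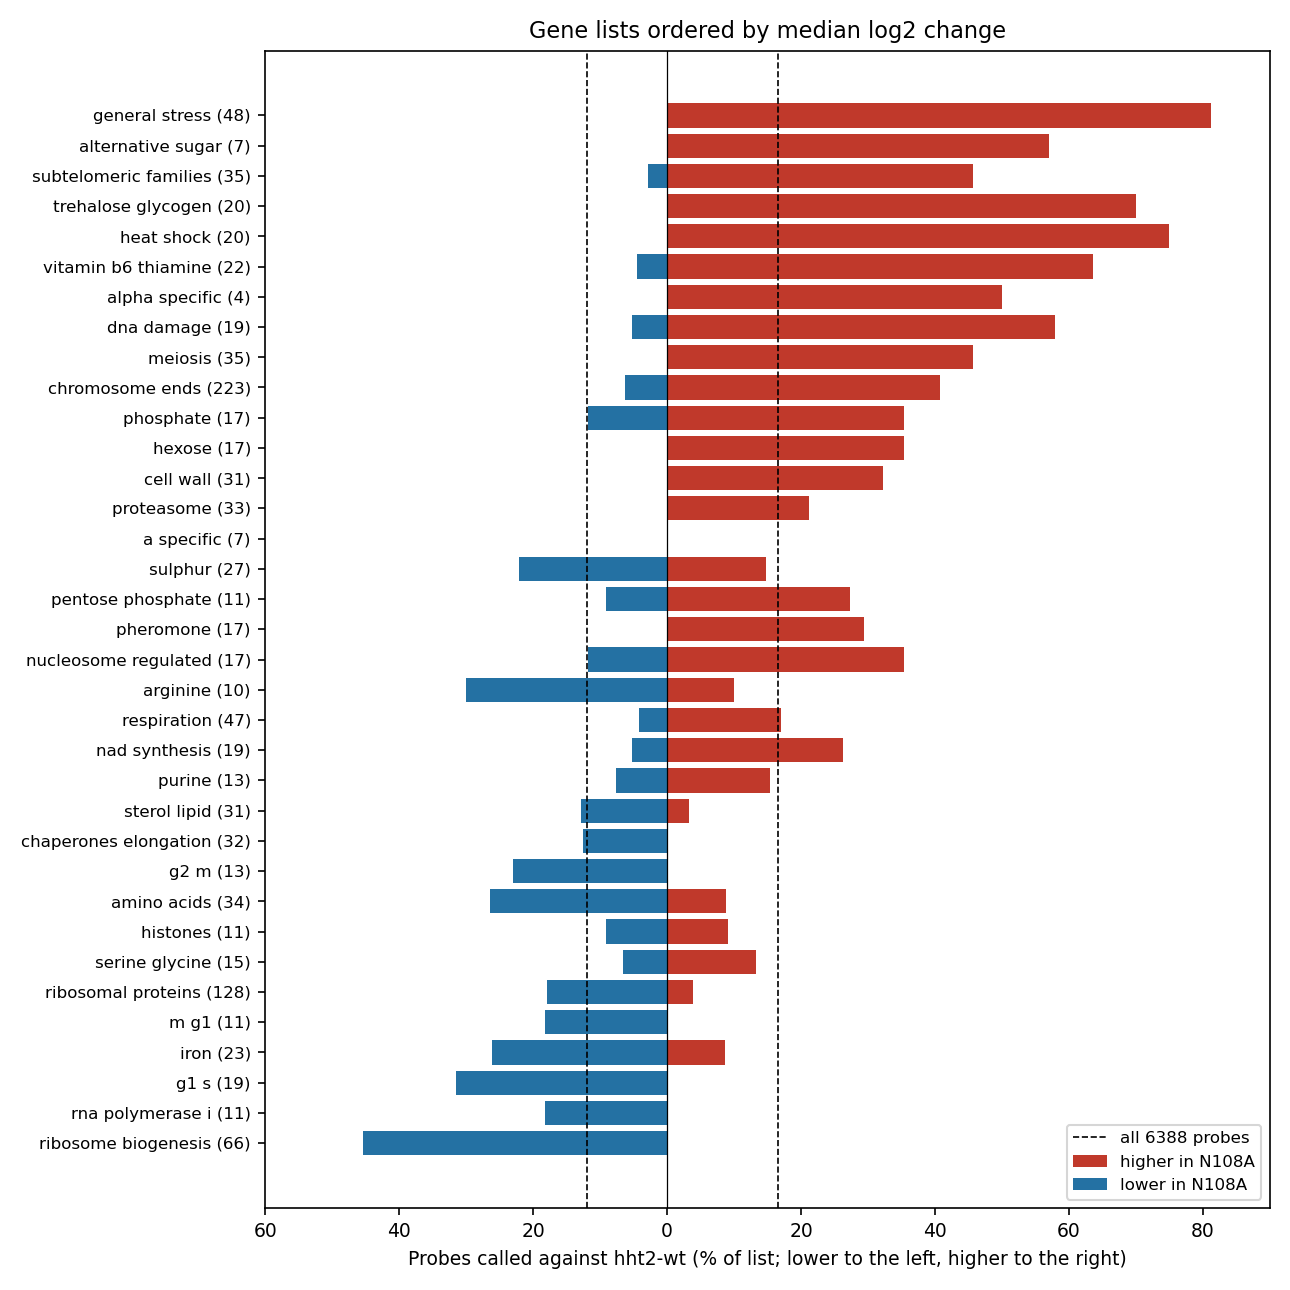
Share of each gene list called higher (red, right) or lower (blue, left) in N108A against hht2-wt, with the number of probes in brackets and lists ordered by their median change. Dashed lines mark the 16.6% and 12% of all 6388 probes; general stress, heat shock and trehalose and glycogen genes lie furthest right and ribosome biogenesis genes furthest left.

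Genes induced by DNA damage had 11 of 19 higher and 1 lower, beside 16.6% and 12% of all probes, with a median of 0.23. The small subunits of ribonucleotide reductase, RNR2 and RNR4, rose: RNR4 had 0.92 and 0.83 in N108A and 0.09 and 0.22 in hht2-wt (0.72 ± 0.07, adjusted p = 6.02e-06), and RNR2 had 0.85 and 0.90 in N108A and 0.22 and 0.26 in hht2-wt (0.64 ± 0.06, adjusted p = 1.11e-05). The strains were apart for both. RNR1, the large subunit, was not called (0.07 ± 0.09, adjusted p = 0.596), nor was the checkpoint kinase gene DUN1 (0.01). DDI2 and DDI3, near-identical genes for cyanamide hydratase whose probes cannot be told apart here, were higher by 0.95 ± 0.06 (adjusted p = 2.64e-07) and 1.06 ± 0.09 (adjusted p = 2.41e-06). HUG1, an inhibitor of ribonucleotide reductase, had 1.78 and 1.75 in N108A and 0.62 and 0.72 in hht2-wt (1.09 ± 0.30, adjusted p = 0.0139). Its call was lost without N108A b (adjusted p = 0.0773) or hht2-wt a (adjusted p = 0.11), although its cultures lay close together within each strain. The count of 11 was 5 without hht2-wt a and 7 without N108A b.

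Of 35 meiosis and sporulation genes, 16 were higher and none lower, beside 16.6% and 12% of all probes, with a median of 0.18. DIT1, an enzyme of the outer spore wall, had 1.52 in both N108A cultures and 0.41 and 0.42 in hht2-wt (1.10 ± 0.09, adjusted p = 2.41e-06). DIT2, its divergent neighbour in spore wall synthesis, had 0.34 and 0.46 in N108A and 0.14 and -0.01 in hht2-wt (0.33 ± 0.07, adjusted p = 0.00264). The ratios did not overlap between strains for either. NDT80, the activator of middle meiotic genes (0.45 ± 0.05, adjusted p = 4.93e-05), SPR3, a sporulation septin (0.56 ± 0.09, adjusted p = 0.000577), and SPS4 (0.52 ± 0.10, adjusted p = 0.00231) were higher. IME1, the master regulator of entry into meiosis, was not called (-0.12 ± 0.10, adjusted p = 0.373), nor was IME2 (0.07). The count was 10 without N108A b and 8 with median centring alone.

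Members of subtelomeric families had 16 of 35 higher and 1 lower, beside 16.6% and 12% of all probes, with a median of 0.43. Many of these probes belong to near-identical families, so their signals are not independent. COS12, of the conserved subtelomeric COS family, had 1.31 and 1.57 in N108A and 0.07 and 0.26 in hht2-wt (1.27 ± 0.19, adjusted p = 0.000223), while COS9 had -0.76 and -0.59 in N108A and -0.32 and -0.07 in hht2-wt (-0.48 ± 0.07, adjusted p = 0.000193). The members of this family thus moved in both directions. AAD4 (0.86 ± 0.07), AAD6 (0.87 ± 0.10) and AAD14 (0.78 ± 0.08), putative aryl alcohol dehydrogenases, were higher with adjusted p of 2.41e-06, 2.16e-05 and 1.11e-05, and AAD3 (-0.03) and AAD15 (0.03) were not called. Helicase genes of telomeric repeats, YRF1-5 and YRF1-7, were each higher by 0.74 (adjusted p = 1.39e-05 and 0.000115). The count of 16 was 10 without N108A b or without hht2-wt a, and 29 in the fit of the 4 arrays alone. The 10 outermost genes of each chromosome arm, a list added after earlier values were seen, had 91 of 223 probes higher and 14 lower, with a median of 0.17; the 14 became 8 without N108A a and 5 without hht2-wt a. Median changes against hht2-wt over whole nuclear chromosomes lay between -0.03 and 0.05.

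Maltose genes, which are repressed in glucose and lie near chromosome ends, were higher in 4 of 7 probes of the list, under each of the 13 alternatives. MAL12, a maltase, had 1.12 and 1.25 in N108A and 0.09 and 0.04 in hht2-wt (1.12 ± 0.08, adjusted p = 3.67e-07); its near-identical copy MAL32 was higher by 0.75 ± 0.10 (adjusted p = 0.000101). MAL33, an activator of maltose genes, had 1.04 and 1.20 in N108A and 0.06 and 0.07 in hht2-wt (1.06 ± 0.07, adjusted p = 1.46e-07), while MAL13, the activator of the other locus, had -0.19 and -0.12 in N108A and -0.22 and -0.13 in hht2-wt (0.02 ± 0.08, adjusted p = 0.876). MAL33 was thus called and MAL13 was not, and the difference between them was not tested. The permease gene MAL11 was higher (0.48 ± 0.05, adjusted p = 1.9e-05), and MAL31 was not called (0.10, adjusted p = 0.355). Among the 31 cell wall probes 10 were higher and none lower, led by TIP1, a mannoprotein, with 0.19 and 0.18 in N108A and -0.77 and -0.71 in hht2-wt (0.92 ± 0.07, adjusted p = 7.56e-07). SPI1, a stress-induced wall protein, was higher by 0.85 ± 0.14 (adjusted p = 0.000706), and the beta-glucan synthase gene FKS1 was not called (-0.01). The count of 10 was 6 without hht2-wt a or with median centring alone. Of 17 phosphate genes 6 were higher and 2 lower, beside 16.6% and 12% of all probes. The acid phosphatase gene PHO12 was higher by 0.73 ± 0.09 (adjusted p = 5.12e-05) and PHO89, a sodium and phosphate symporter, by 0.59 ± 0.06 (adjusted p = 9.16e-06).

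Arginine synthesis held ARG3, ornithine carbamoyltransferase, which had the largest decrease of the named genes. ARG3 had 1.35 and 1.51 in N108A and 2.20 and 2.21 in hht2-wt (-0.78 ± 0.11, adjusted p = 0.000219), a ratio of 0.583. ARG8, acetylornithine aminotransferase, had 0.55 and 0.48 in N108A and 1.11 and 1.03 in hht2-wt (-0.55 ± 0.08, adjusted p = 0.000181). ARG1, argininosuccinate synthetase, had 1.40 and 1.32 in N108A and 1.92 and 2.06 in hht2-wt (-0.63 ± 0.17, adjusted p = 0.0123). All N108A ratios lay below those of hht2-wt, but the ARG1 call was lost without N108A b (adjusted p = 0.0869), hht2-wt a (0.0564) or hht2-wt b (0.0631). ARG4 (-0.03, adjusted p = 0.833) and ARG2 (-0.01, adjusted p = 0.904), which encode the last and the first enzyme of the pathway, were not called. CAR2, ornithine transaminase of arginine breakdown, was higher, with -0.77 and -0.99 in N108A and -1.45 and -1.36 in hht2-wt (0.53 ± 0.10, adjusted p = 0.00144), and CAR1, the arginase gene, was not called (0.22, adjusted p = 0.252). The list thus held 3 lower and 1 higher of 10 probes, beside 12% and 16.6% of all probes.

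Of 34 probes for other amino acids, 9 were lower and 3 higher, beside 12% and 16.6% of all probes. The lower ones include HIS1 (-0.33 ± 0.06, adjusted p = 0.000901) of histidine synthesis, ASN1 (-0.33 ± 0.08, adjusted p = 0.00652) for asparagine synthetase, HOM2 (-0.30 ± 0.08, adjusted p = 0.00993) of the aspartate pathway, and GCN4 (-0.21 ± 0.07, adjusted p = 0.0356), which encodes the activator of amino acid synthesis. The HOM2 call was lost without N108A b (adjusted p = 0.0688) or hht2-wt a (adjusted p = 0.0995). The 3 higher probes were lysine genes: LYS9 (0.55 ± 0.09, adjusted p = 0.000532) and LYS1 (0.48 ± 0.08, adjusted p = 0.000459), the last steps of that pathway, and LYS21 (0.18, adjusted p = 0.014), homocitrate synthase. The other homocitrate synthase gene, LYS20, went the other way (-0.30 ± 0.08, adjusted p = 0.0167). The count of 9 was 3 without hht2-wt a and 4 without N108A a.

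Sulphur genes moved both ways. SAM3, the S-adenosylmethionine permease, had -0.91 and -0.86 in N108A and -0.18 and -0.29 in hht2-wt (-0.65 ± 0.11, adjusted p = 0.000521). Its neighbour SAM4, a homocysteine methyltransferase, had -0.22 and -0.36 in N108A and 0.20 and 0.00 in hht2-wt (-0.39 ± 0.08, adjusted p = 0.00215), and CYS4, cystathionine beta-synthase, was lower by a log2 change of -0.36 ± 0.06 (adjusted p = 0.000535). The ratios of the strains did not overlap for SAM3 or SAM4. In the same list of 27 sulphur probes, 6 (22.2%) were lower and 4 (14.8%) higher, against 12% and 16.6% of all probes. The higher ones include MET16, a reductase of sulphate assimilation (0.36 ± 0.05, adjusted p = 0.000274), and MET6, methionine synthase (0.46 ± 0.10, adjusted p = 0.00334), a call lost with median centring alone (0.26, adjusted p = 0.125). The 6 lower probes were 3 without N108A b, and the 4 higher were 2 without N108A a or hht2-wt b.

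Iron genes were split. SIT1, a siderophore transporter, had -0.78 and -0.38 in N108A and -0.04 and 0.01 in hht2-wt (-0.56 ± 0.13, adjusted p = 0.00521), a call lost without N108A a (-0.36, adjusted p = 0.0842). FTR1, the high-affinity iron permease, had -0.66 and -0.42 in N108A and -0.23 and -0.03 in hht2-wt (-0.41 ± 0.08, adjusted p = 0.00152). ARN2, another siderophore transporter, went the other way, with -0.27 and -0.12 in N108A and -0.88 and -0.72 in hht2-wt (0.61 ± 0.08, adjusted p = 8.78e-05), as did FRE2, a ferric reductase (0.44 ± 0.06, adjusted p = 6.52e-05). The groups were apart for each of these 4 genes. Shares over all probes were 12% lower and 16.6% higher. In all, 6 of 23 probes were lower and 2 higher, and the 6 became 3 without N108A a.

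Ribosome biogenesis gave the highest share of lower genes, 30 of 66 probes with none higher, beside 12% and 16.6% of all probes. Its median was -0.19. NOP4, a nucleolar protein of large subunit assembly, had -0.22 and -0.18 in N108A and 0.26 and 0.11 in hht2-wt (-0.38 ± 0.08, adjusted p = 0.00256). PUF6, which is not a member of this list, had -0.53 and -0.20 in N108A and 0.25 and 0.20 in hht2-wt (-0.59 ± 0.09, adjusted p = 0.000385). It encodes an RNA-binding protein that represses ASH1 mRNA translation and acts in large subunit assembly. The changes are small beside those of the stress genes, and the list's median was -0.29 in culture a and -0.12 in culture b. The count of 30 was 4 without N108A a and 7 without hht2-wt a. Of 128 ribosomal protein probes, 23 were lower and 5 higher, beside 12% and 16.6% of all probes. Their median was -0.09, with a range of -0.44 to 0.33. RPL16A had -0.57 and -0.81 in N108A and -0.23 and -0.31 in hht2-wt (-0.42 ± 0.07, adjusted p = 0.000501), and the 2 probes of RPL9B were lower by log2 changes of -0.36 ± 0.05 (adjusted p = 0.000109) and -0.21 ± 0.06 (adjusted p = 0.0154). The count of 23 was 7 without hht2-wt a, 9 without N108A b, 9 without the replicate block and 81 with median centring alone, and the 5 higher probes became 0 without N108A a or hht2-wt a.

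SPT4 had one of the largest decreases outside metabolism. It encodes, with SPT5, an elongation factor that travels with RNA polymerase, and had -1.11 and -1.19 in N108A and -0.56 and -0.47 in hht2-wt (-0.64 ± 0.07, adjusted p = 2.55e-05). The strains were apart, and both were below the reference. Of 32 probes for histone chaperones, elongation factors and histone methyltransferases, 4 were lower and none higher, beside 12% lower and 16.6% higher of all probes. The lower count was thus close to the share over all probes. POB3, a subunit of FACT (-0.23 ± 0.05, adjusted p = 0.0064), SET2, the H3 K36 methyltransferase (-0.24 ± 0.06, adjusted p = 0.00874), and CTR9 of the Paf1 complex (-0.19 ± 0.06, adjusted p = 0.0267) were the other 3, and each lost its call without hht2-wt b (adjusted p = 0.0645, 0.092 and 0.0545), which left 1 of the 4. CTR9 lost its call in 8 of 13 alternatives, among them all 4 fits without 1 culture (adjusted p = 0.0515 to 0.164), and its change was -0.07 with print-tip loess and -0.06 in the authors' value table. SPT16, the other FACT subunit (-0.06, adjusted p = 0.433), SPT6 (-0.04, adjusted p = 0.646) and the H3 chaperone gene ASF1 (0.09, adjusted p = 0.515) were not called.

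Cell cycle genes were lower where they were called. CLB2, the main mitotic cyclin, had -0.75 and -0.41 in N108A and -0.07 and -0.05 in hht2-wt (-0.52 ± 0.08, adjusted p = 0.000202), and FKH1, a forkhead factor, had -0.40 and -0.38 in N108A and -0.01 and -0.15 in hht2-wt (-0.31 ± 0.06, adjusted p = 0.00137). Both were lower in each N108A culture than in both controls. Of 13 G2/M probes 3 were lower, beside 12% of all probes. The remaining lower G2/M gene was CLB1 (-0.46 ± 0.15, adjusted p = 0.0316), a call lost without the replicate block (adjusted p = 0.103). In the M/G1 list PCL9 (-0.21) and DSE3 (-0.25) were lower. Of 19 G1/S probes 6 were lower, again beside 12% of all probes. They were led by MSH6 (-0.29 ± 0.05, adjusted p = 0.00109) of mismatch repair and CDC45 (-0.27 ± 0.06, adjusted p = 0.00289) of replication. The G1/S count was 2 without N108A b and 3 without N108A a or hht2-wt b. CLB5 (0.07) and SWI5 (-0.17) were not called. HO, the mating-type endonuclease gene, had -0.72 and -0.61 in N108A and -0.12 and -0.10 in hht2-wt (-0.56 ± 0.18, adjusted p = 0.0302), a call that no fit without 1 of the 4 cultures kept (adjusted p = 0.0642 to 0.169).

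Some of the genes with the largest changes fall in no list. YDR131C, an F-box protein gene, had 1.31 and 1.02 in N108A and 0.06 and -0.09 in hht2-wt (1.18 ± 0.06, adjusted p = 7.53e-09), and ECM4, a glutathione transferase gene, had 1.25 and 1.21 in N108A and 0.10 and 0.07 in hht2-wt (1.15 ± 0.12, adjusted p = 1.11e-05). KEI1, a subunit of inositol phosphorylceramide synthase, had -1.12 and -1.25 in N108A and -0.57 and -0.53 in hht2-wt (-0.63 ± 0.06, adjusted p = 6.02e-06). Ratios of YCP4 were -0.76 and -0.90 in N108A and -0.29 and -0.24 in hht2-wt (-0.56 ± 0.07, adjusted p = 4.73e-05), and those of YLR126C were -0.71 in both N108A cultures and -0.23 and -0.15 in hht2-wt (-0.52 ± 0.08, adjusted p = 0.000439). The ratios of the strains did not overlap for any of these 5 genes. Of the nearest measured genes on each side, 21 neighbours of the 12 highest genes had 3 higher and 3 lower, and 24 neighbours of the 12 lowest had 7 lower and 2 higher, beside 16.6% higher and 12% lower over all probes. Beside SER3, UTP7 was lower (-0.21, adjusted p = 0.0461) and AIM9 was not called (0.04).

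Calls upward were more frequent among weakly expressed genes. The median reference signal on the hht2-wt arrays was 356 for higher probes, 541 for lower probes and 477 for probes not called. Of the 1278 probes with the lowest signal, 22.5% were higher and 7.82% lower, against 15.6% and 12.4% of the 1278 with the highest. Reference signals of the lowest group ran from 50, a value equal to the offset of the background correction, to 156. The part of this floor in the split was not tested. The fourth group from the bottom had the fewest higher probes, at 12%. Standard errors rose with signal, from a median of 0.055 in the lowest group to 0.077 in the highest, and their part in the difference was not tested.

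**Figure D5:**
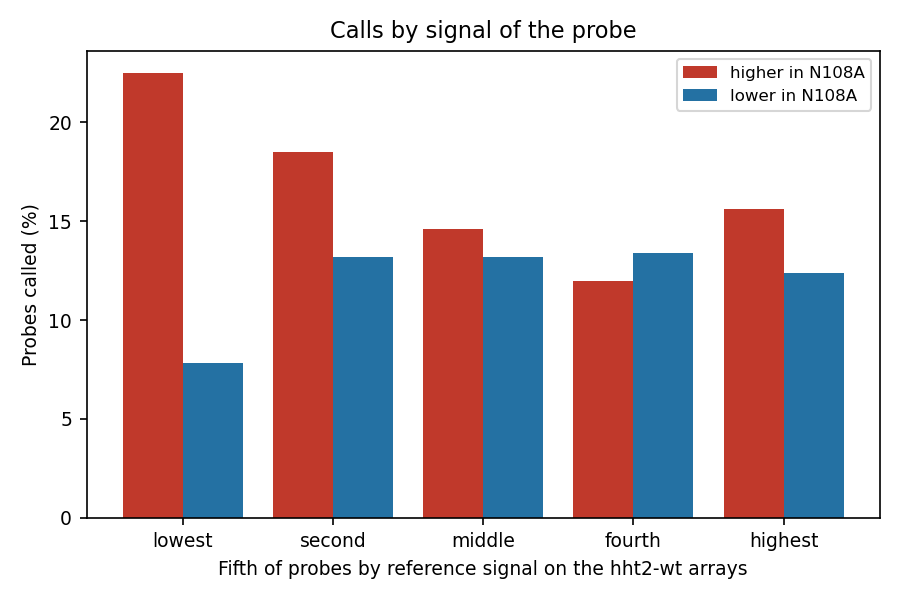
Share of probes called higher (red) or lower (blue) in N108A against hht2-wt, with probes split in 5 groups of nearly equal size by reference signal on the hht2-wt arrays. Higher calls are most frequent in the lowest group, at 22.5%, where lower calls are least frequent, at 7.82%.

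The neighbouring substitution L109A alters the next residue of H3. N108A differed from L109A at 1592 probes (24.9%), 996 higher (15.6%) and 596 lower (9.33%), of which 98 were higher by at least 1.7-fold and 0 lower by as much. L109A itself differed from hht2-wt at 4 probes (0.0626%), with 270 at an unadjusted limma p below 0.05. The genes with the largest direct difference were SNZ1, with 2.27 and 2.42 in N108A and 0.45 and 0.44 in L109A (1.90, adjusted p = 6.65e-07), THI11 (1.44, adjusted p = 2.79e-09), SNO1 (1.43, adjusted p = 2.35e-06), GND2 (1.39, adjusted p = 1.9e-06) and INO1 (1.34, adjusted p = 1.9e-06). ARG3 (-0.71, adjusted p = 0.000576), YCP4 (-0.67, adjusted p = 1.43e-05), SAM3 (-0.64, adjusted p = 0.000715), CLB1 (-0.62, adjusted p = 0.0078) and PUF6 (-0.61, adjusted p = 0.000355) were lowest. SER3 was higher in N108A than in L109A by 1.34 (adjusted p = 1.34e-05). L109A carries the title number 1, so here too the number and the residue cannot be told apart. The count was 579 without L109A a, 878 without L109A b and 989 without N108A a.

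Set against G44A, an H3 strain whose titles carry the same number as N108A, the stress genes went the other way. N108A differed from G44A at 2089 probes (32.7%), 1060 higher (16.6%) and 1029 lower (16.1%). On chromosome VIII, 102 of 252 probes were lower and 6 higher (median -0.17), and on chromosome I 22 of 83 were lower and 1 higher (median -0.13), the 2 chromosomes with raised ratios in G44A. With both left out, a fit added after these values were seen, 1966 of 6053 probes differed, 1059 higher and 907 lower. Of the 48 general stress probes, 27 were lower and 1 higher in N108A, with a median of -0.35, and of 20 trehalose and glycogen probes 14 were lower and none higher. Off chromosomes I and VIII the counts were 24 lower and 1 higher of 45 general stress probes, and again 14 lower of 20. HSP78, a mitochondrial chaperone gene, had 0.21 and 0.00 in N108A and 1.41 and 1.21 in G44A (-1.21, adjusted p = 0.000277). MSC1 (-1.22, adjusted p = 0.000403), GPH1, glycogen phosphorylase (-1.12, adjusted p = 0.00147), HSP12 (-1.12, adjusted p = 0.0116) and CRG1, a methyltransferase on chromosome VIII (-1.46, adjusted p = 7.85e-07), were the others at the low end. The genes highest against G44A were CHA1, with 0.91 and 0.75 in N108A and -1.17 and -1.49 in G44A (2.16, adjusted p = 7.53e-08), COS12 (1.63, adjusted p = 5.05e-05), INO1 (1.5, adjusted p = 9.6e-07), BNA2 (1.37, adjusted p = 1.47e-06) and YJR079W (1.07, adjusted p = 7.53e-08). SER3 was higher by 0.96 (adjusted p = 0.00021). SNZ1 (0.01, adjusted p = 0.963), THI11 (0.03, adjusted p = 0.791) and GND2 (-0.01, adjusted p = 0.953) were not called between these strains, with standard errors of 0.13, 0.06 and 0.11. The fit of the 4 arrays of N108A and G44A alone called 449 probes, and without N108A a the count was 1361.

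The title number is the same on both sides in the comparison of N108A with the mean of the 5 other strains that carry 2, the H3 strains Q5A, R40A and G44A and the H4 strains K44A and V81A. There 2181 probes (34.1%) differed, 1184 higher (18.5%) and 997 lower (15.6%). Of the lower probes 238 lie on chromosome XIV, where 17 of 358 probes were higher and the median was -0.23, and that chromosome had raised ratios in K44A and V81A. In 2 fits added after these values were seen, 1840 of 5695 probes differed with chromosomes I, VIII and XIV left out (1120 higher and 720 lower), and 2081 against the mean of Q5A and R40A alone (1216 higher and 865 lower). The largest differences upward were CHA1 (1.73, adjusted p = 3.41e-08), INO1 (1.71, adjusted p = 1.7e-08), SER3 (1.38, adjusted p = 1.14e-06), BNA2 (1.37, adjusted p = 8.57e-08) and YGR109W-A, a Ty3 gene (1.09, adjusted p = 0.000236). The largest downward were ARG1 (-0.90, adjusted p = 0.000128), HIS4 of histidine synthesis (-0.88, adjusted p = 4.53e-07), ARG3 (-0.80, adjusted p = 1.71e-05), PTR2, the peptide transporter (-0.77, adjusted p = 8.01e-06), and SIT1 (-0.73, adjusted p = 8.79e-05). HIS4 had -0.52 and -0.49 in N108A, below all 20 other arrays, the lowest of which was -0.30. SNZ1 differed by 0.33 (adjusted p = 0.0237) and SNO1 by -0.09 (adjusted p = 0.458), against 1.66 and 1.20 in the comparison with hht2-wt. DDI2 (0.04), DDI3 (0.11), TIP1 (-0.10), MAL32 (0.00), PHO89 (0.02), ARN2 (0.09) and FRE2 (-0.10) were not called here (adjusted p = 0.103 to 0.977). MAL33 (0.44, adjusted p = 2.52e-05) and RNR4 (0.55, adjusted p = 4.67e-06) were higher. Of the 1062 probes higher against hht2-wt, 705 (66.4%) were also higher here and 18 were lower. Of the 767 lower, 423 (55.1%) were also lower and 5 were higher. Of the 34 amino acid probes 20 were lower and 1 higher, of 23 iron probes 12 were lower and none higher, and of 48 general stress probes 27 were higher and none lower. Against Q5A and R40A alone, amino acid probes were 17 lower and 3 higher, iron probes 8 lower and 1 higher, and general stress probes 33 higher and none lower. SNZ1 differed from those 2 strains by 0.75 (adjusted p = 0.000281), SER3 by 1.87 (adjusted p = 1.2e-07) and ARG3 by -1.14 (adjusted p = 2.33e-06). These comparisons share the N108A arrays with the one against hht2-wt. The count was 1310 without N108A a and 1376 without N108A b.

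The authors' deposited table, which compares N108A with hhf2-wt in place of hht2-wt, lists 2918 of 6182 probes at a corrected p below 0.05, 1494 higher and 1424 lower. In the authors' deposited table SER3 stands at 1.46, INO1 at 1.38, CHA1 at 0.98 and ARG3 at -0.75. Of the 1717 probes called here that the authors' deposited table lists, 4 have the opposite sign there.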

How the data were processed

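Strain RNA was hybridised with reference RNA on 2-colour arrays. The deposited scanner files hold the mean intensity and median local background of each spot in both channels, per the file headers. The authors' value table holds log2 ratios (print-tip loess, per the deposited protocol text), and the authors' deposited comparison table gives a log2 fold change and a corrected p-value per probe, from limma, per the submitters' processing notes. From the intensities, background was corrected (normexp, offset 50), ratios were normalised by global loess (control spots at weight 0), turned to strain over reference by the dye labels, and 2 spots per probe were averaged. The 22 arrays were fitted in R 4.3.3 by limma 3.58.1 with strain means and a term for dye, which coincides with the culture letter and so is the replicate block. The residual degrees of freedom were 10, to which the prior added 4.16. The median standard error was 0.068. The difference of culture b from a correlated between N108A and hht2-wt (r = 0.465 across probes). The number of arrays limits the precision. Genes with the largest changes, all histone genes, up to 4 members per list and direction, members shown for their role, and the 5 largest per direct comparison were named. The strains and lists were chosen with earlier results of these data known. Names and gene order came from the R64 gene table (5326 probes named), and the files name no build. Alternatives are given in the closing section, and the fit was tested on simulated data.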

Additional observations from a re-analysis of the deposited data

How the results depend on the processing

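The count of 1829 probes between N108A and hht2-wt was 925 to 1428 when 1 culture was left out, lowest without hht2-wt a, and 1120 without the replicate block. It ran from 1233 (median centring alone) to 2310 (mean of both controls) under the other alternatives, with 1959 for print-tip loess, 1821 against hhf2-wt and 1965 for the authors' value table. Against L109A, 1592 became 579 to 1132 with a culture left out, 904 without the replicate block and 918 with only the arrays compared. Against G44A, 2089 became 1361 to 1880 with a culture left out, 1296 without the replicate block, 1183 with median centring alone and 449 with only the arrays compared. Against the other strains numbered 2, 2181 became 1310 to 1376 with an N108A culture left out and 1500 without the replicate block. Leaving out the chromosomes or strains that stood apart, chosen after seeing the data, gave 1966 against G44A and 1840 to 2081 against the strains numbered 2. Fits with 1 array left in a strain assume that it varies like the others. HHT2 was not called under any alternative (-0.28 to 0.28). Of 154 named genes called, 83 kept their call under every alternative run, and 2 reversed sign: RPS10B with median centring alone (-0.09) and RPL41B in the authors' value table (-0.18). The cause was not tested. Slide or scan date as a block was not run. Changes under about 0.2 lie near the limit that the standard errors allow, and 4 probes called against hht2-wt were at background in hht2-wt on both arrays.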

Other observations

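Of 47 probes for the citric acid cycle and respiratory chain, 8 (17%) were higher in N108A than in hht2-wt and 2 (4.26%) lower, beside 16.6% and 12% of all probes, with a median change of 0.03. The 8 were genes of the citric acid cycle, led by CIT1, mitochondrial citrate synthase, with ratios of 0.84 and 0.85 in N108A and 0.37 and 0.46 in hht2-wt (0.43 ± 0.09, limma adjusted p = 0.00269), and ACO1, aconitase, with 0.17 and 0.27 in N108A and -0.29 and -0.11 in hht2-wt (0.42 ± 0.07, adjusted p = 0.000918). The 2 lower were respiratory chain subunits, COX4, with -0.07 and -0.02 in N108A and 0.30 and 0.38 in hht2-wt (-0.39 ± 0.10, adjusted p = 0.0127), and RIP1 (-0.27 ± 0.08, adjusted p = 0.0287). The count of 8 was 3 without N108A a, 4 without either hht2-wt culture and 2 with median centring alone.

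Of 17 pheromone response genes 5 were higher and none lower, beside 16.6% and 12% of all probes. PRM2, a pheromone-regulated membrane protein, had 1.44 and 1.77 in N108A and 0.84 and 0.75 in hht2-wt (0.81 ± 0.18, adjusted p = 0.00395), while FUS1 of cell fusion was not called (0.06, adjusted p = 0.833). The count of 5 was 0 without N108A b, 1 without hht2-wt a, 2 without hht2-wt b and 3 without N108A a. HXT5, a transporter of slow-growing cells, had 0.30 and 0.24 in N108A and -0.03 and -0.07 in hht2-wt (0.32 ± 0.06, adjusted p = 0.00247). Of the 17 hexose transporter probes, 6 were higher and none lower, beside 16.6% and 12% of all probes. That count was 3 without N108A a, N108A b or hht2-wt b. Purine synthesis had 2 higher and 1 lower of 13 probes, beside 16.6% and 12% of all probes. The lower was ADE13, adenylosuccinate lyase, at -0.35 and -0.39 in N108A and -0.06 and -0.09 in hht2-wt (-0.29 ± 0.04, adjusted p = 0.000306).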
